A study of Mus musculus with 24 samples.

Results

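The 10 genes described here encode the muscarinic acetylcholine receptors Chrm1, Chrm2, Chrm3 and Chrm4 and the adrenergic receptors Adra1a, Adra1b, Adra1d, Adra2a, Adra2c and Adrb1. They were chosen by symbol, 10 of the 55414 genes in the deposited count table, and all 10 were among the 14464 genes that reached 30 counts in any library and were tested. RNA-seq measured polyadenylated RNA of the visual cortex (V1) in 24 C57BL/6J male mice of 8 weeks, kept in a reversed light cycle and studied in their dark phase, with 1 library per mouse. The 6 dark mice received an injection of phosphate-buffered saline and stayed in the dark. The 6 light mice received the same vehicle and were placed in light. The 6 psilocybin-dark mice received 5 mg/kg psilocybin, a serotonergic psychedelic, and stayed in the dark, and the 6 psilocybin-light mice received 5 mg/kg and were placed in light. Tissue was taken after 2.5 h in all 4 groups. Whole tissue was extracted, so fewer cells of a type and less RNA per cell cannot be told apart in any value below.

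Acetylcholine reaches the cortex from the basal forebrain and noradrenaline from the locus coeruleus, and both transmitters set arousal, attention and the gain of visual responses. Muscarinic and adrenergic receptors pass these signals on through G proteins. Chrm1, Chrm3 and the alpha1 receptors couple to Gq and phospholipase C, Chrm2, Chrm4 and the alpha2 receptors to Gi, which lowers cyclic AMP, and Adrb1 to Gs, which raises it. Psilocybin acts mainly through serotonin receptors, and none of the 10 genes is its principal target.

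The groups followed the headings of the study's supplementary count table. For all 24 libraries the labels of the samples name the same drug and the other light condition, so under the labels light and dark change places in every comparison below. Which assignment is right was not tested. With the labels' exposure the libraries called dark here would be vehicle-injected mice in light, and those called light would be vehicle-injected mice in the dark.

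Library totals ran from 13552516 to 17906994 counts. The label of visual cortex was checked against marker genes of cortical excitatory neurons, which include Slc17a7, the vesicular glutamate transporter, and the cortical transcription factor Tbr1. The normalized counts (counts scaled to a common library size) of these 11 markers summed to between 13800.0 and 36218 in dark mice, with a median of 33308, and to between 32964 and 45206 in the other 18 mice. Markers of other brain regions stood high in some libraries. The 8 cerebellar markers, Gabra6 and Pcp2 among them, summed to 29747 in dark mouse 1, 62498 in dark mouse 6, 28753 in psilocybin-dark mouse 12 and 17910 in light mouse 18, against 439 to 1963 in the other 20 libraries. The 10 hippocampal markers, such as Fibcd1, summed to between 2695 and 7175 in dark mice and to between 1104 and 1809 in the other 3 groups, with no overlap. The 8 hypothalamic and amygdalar markers, such as Gpr101 and Dlk1, summed to between 1554 and 14155 in dark mice, with a median of 7621, against 1358 to 2777 elsewhere. Of 11 cortical excitatory markers 7 were higher than in dark mice with light, 7 with psilocybin in the dark and 8 with both, and none was lower. Of 8 hippocampal markers tested 5, 3 and 6 were lower in these comparisons, and of 8 hypothalamic and amygdalar markers 7 were lower in each. The cerebellar markers passed in the last comparison alone, where 7 of 8 were lower in psilocybin-light mice. Of 3 astrocyte markers 2 were lower and 1 higher in each comparison, and their sum ran from 7143 to 10944 in dark mice, 5464 to 7857 in light mice, 5719 to 7577 in psilocybin-dark mice and 4499 to 6602 in psilocybin-light mice. The 3 oligodendrocyte markers, none of which passed, summed to between 14510 and 99655 in dark mice. Their sums were 37363 to 59663 in light, 30016 to 60938 in psilocybin-dark and 32797 to 70146 in psilocybin-light mice. Psilocybin-light mouse 23 stood apart in its group, with 3305 for the 5 thalamic markers against 942 to 1266 in the other 5 and the lowest cortical excitatory sum of the 6 (33988). The part of these markers in the results was not tested beyond the fits given beside them.

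**Figure D1:**
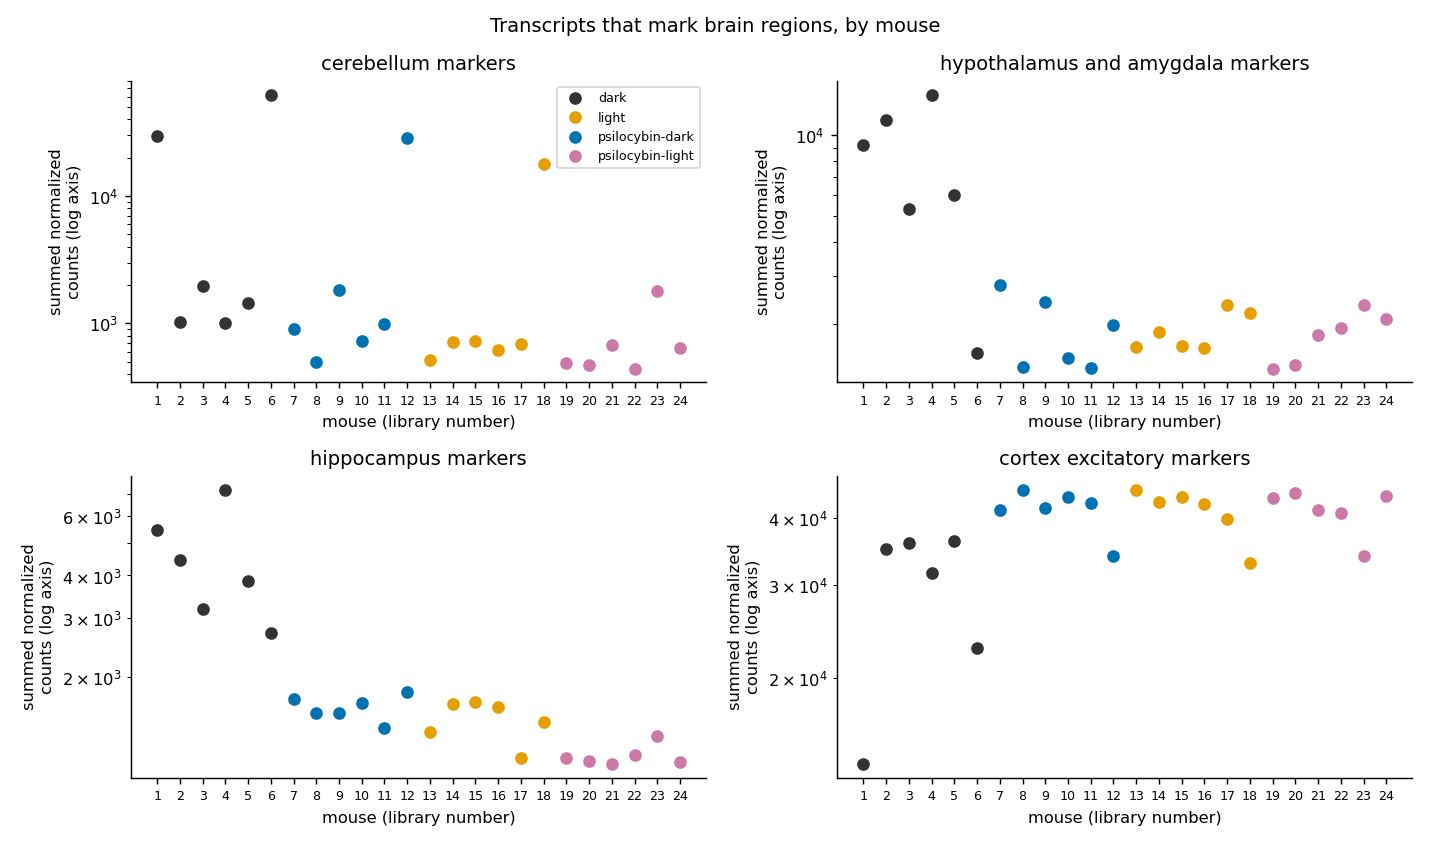
Summed normalized counts (log axis) of 4 lists of region markers in each of the 24 mice, ordered by library number and coloured by group. The cerebellar list is high in mice 1, 6, 12 and 18, and the hippocampal list is higher in all 6 dark mice than in any other mouse.

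Per length, Chrm1 was the most abundant of the 10 transcripts and Adra1a the least. The median level of Chrm1 in light mice was 28.9 CPM (counts scaled to library size) per kilobase (kb) of merged exons and that of Adra1a was 0.423. In light mice Chrm1 was followed by Chrm3 (14.9), Chrm4 (14.9), Adrb1 (14.9) and Adra1d (12.2), and then by Adra2c (8.87), Adra2a (7.00), Adra1b (6.40) and Chrm2 (4.25), all in CPM per kb. The ranges of the 6 light mice overlapped between most neighbours in this order, and stood apart only between Chrm1 and Chrm3, between Adra2c and Adra2a and between Chrm2 and Adra1a. In dark mice the order differed in the middle: Adra2a had the third highest median (13.1 per kb) and Chrm3 the seventh (6.78 per kb), where the other 3 groups placed Chrm3 among the upper genes and Adra2a below Adra2c. This scale depends on the gene model, which gives Chrm4 1440 exonic bases and Adra1a 20155.

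**Figure D2:**
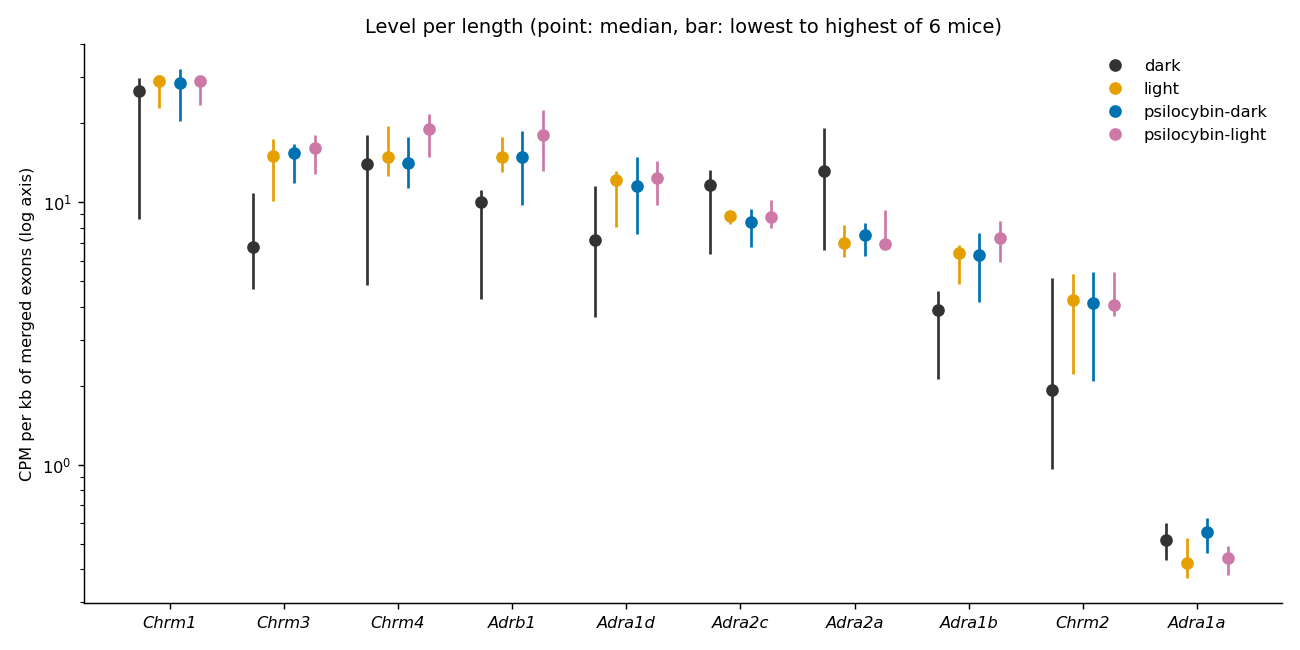
Level of each receptor transcript per kb of merged exons (log axis) in the 4 groups, as the median (point) and the lowest to highest of 6 mice (bar), with genes in the order of the light group. Chrm1 stands at the top and Adra1a at the bottom in every group, and the dark bars are the longest for most genes.

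The 10 genes lie on 7 chromosomes of GRCm39. Chrm1 (chr19:8640962-8662278), Adra2a (chr19:54032582-54037413) and Adrb1 (chr19:56710631-56721545) share chromosome 19, and Chrm4 (chr2:91757594-91759033) and Adra1d (chr2:131385993-131404693) share chromosome 2. Chrm2 lies at chr6:36364718-36505582, Chrm3 at chr13:9925522-10410883, Adra1a at chr14:66872700-67012152, Adra1b at chr11:43665433-43792037 and Adra2c at chr5:35435663-35439107. The 250 bases upstream of the annotated start were searched on both strands for the cAMP response element TGACGTCA, its core TGACG, the AP-1 site TGANTCA and the Egr site GCGNGGGCG, which are bound by factors that neuronal activity induces or activates. The core, which is also part of the whole element, was in 2 of the 10 windows, those of Adra1b and Adrb1, and in 22.5% of 14426 windows of genes tested. The other 3 motifs were in none of the 10 and in 2.02%, 4.51% and 6.20% of all windows. The windows of Adra1b and Adrb1 are shown because they hold the motif, with it in capitals, and that of Chrm3 because this gene differed most from dark mice among those that were higher in all 3 comparisons. The Adra1b window is chr11:43727160-43727409 on the minus strand, the Adrb1 window chr19:56710381-56710630 on the plus strand and the Chrm3 window chr13:10410881-10411130 on the minus strand.
Adra1b: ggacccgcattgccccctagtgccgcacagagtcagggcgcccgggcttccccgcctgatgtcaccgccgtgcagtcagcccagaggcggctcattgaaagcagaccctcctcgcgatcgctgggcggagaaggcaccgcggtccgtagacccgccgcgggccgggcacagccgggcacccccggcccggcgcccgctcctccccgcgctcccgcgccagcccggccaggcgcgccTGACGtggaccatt
Adrb1: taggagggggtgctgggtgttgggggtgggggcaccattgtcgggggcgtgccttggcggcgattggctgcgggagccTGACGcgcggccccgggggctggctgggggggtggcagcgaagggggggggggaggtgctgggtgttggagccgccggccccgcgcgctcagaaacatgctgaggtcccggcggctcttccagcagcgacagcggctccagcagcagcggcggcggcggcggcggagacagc
Chrm3: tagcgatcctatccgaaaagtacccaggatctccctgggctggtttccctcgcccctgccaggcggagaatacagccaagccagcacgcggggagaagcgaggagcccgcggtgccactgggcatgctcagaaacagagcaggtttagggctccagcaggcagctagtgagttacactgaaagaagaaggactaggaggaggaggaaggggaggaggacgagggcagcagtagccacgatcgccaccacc
The core begins 14 bases upstream of the start in Adra1b and 172 bases upstream in Adrb1. G and C made up 75.2% and 75.6% of these 2 windows and 60.8% of that of Chrm3.

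Light alone asks what visual input does to these transcripts. Of the 10 genes, 6 passed the test between light and dark mice, 4 of them higher in light mice (Chrm3, Adra1b, Adra1d and Adrb1) and 2 lower (Adra1a and Adra2a), where 31.9% of all genes tested passed (15.4% higher and 16.5% lower). The groups did not overlap for 2 members, Adra1b and Adrb1, against 10.0% of all genes. Psilocybin in the dark asks what the drug does without visual input. Against dark mice 5 of the 10 passed, 4 higher (Chrm3, Adra1b, Adra1d and Adrb1) and 1 lower (Adra2a), where 24.7% of all genes passed (11.9% higher and 12.8% lower). Chrm3 was the only member without overlap here, against 5.58% of all genes. With psilocybin and light together 8 of 10 passed against dark mice, 6 higher (Chrm2, Chrm3, Chrm4, Adra1b, Adra1d and Adrb1) and 2 lower (Adra1a and Adra2a), where 38.4% of all genes passed (17.4% higher and 21.0% lower), and 3 did not overlap (Chrm3, Adra1b and Adrb1) against 15.8%. The median log2 fold change of the 10 was 0.53, 0.49 and 0.66 in these comparisons, while that of all genes was -0.01, -0.02 and -0.02. The 3 comparisons share the same 6 dark mice, so their values are given side by side and are not independent. Adjusted p-values are from edgeR's quasi-likelihood test with Benjamini-Hochberg adjustment over all genes.

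**Figure D3:**
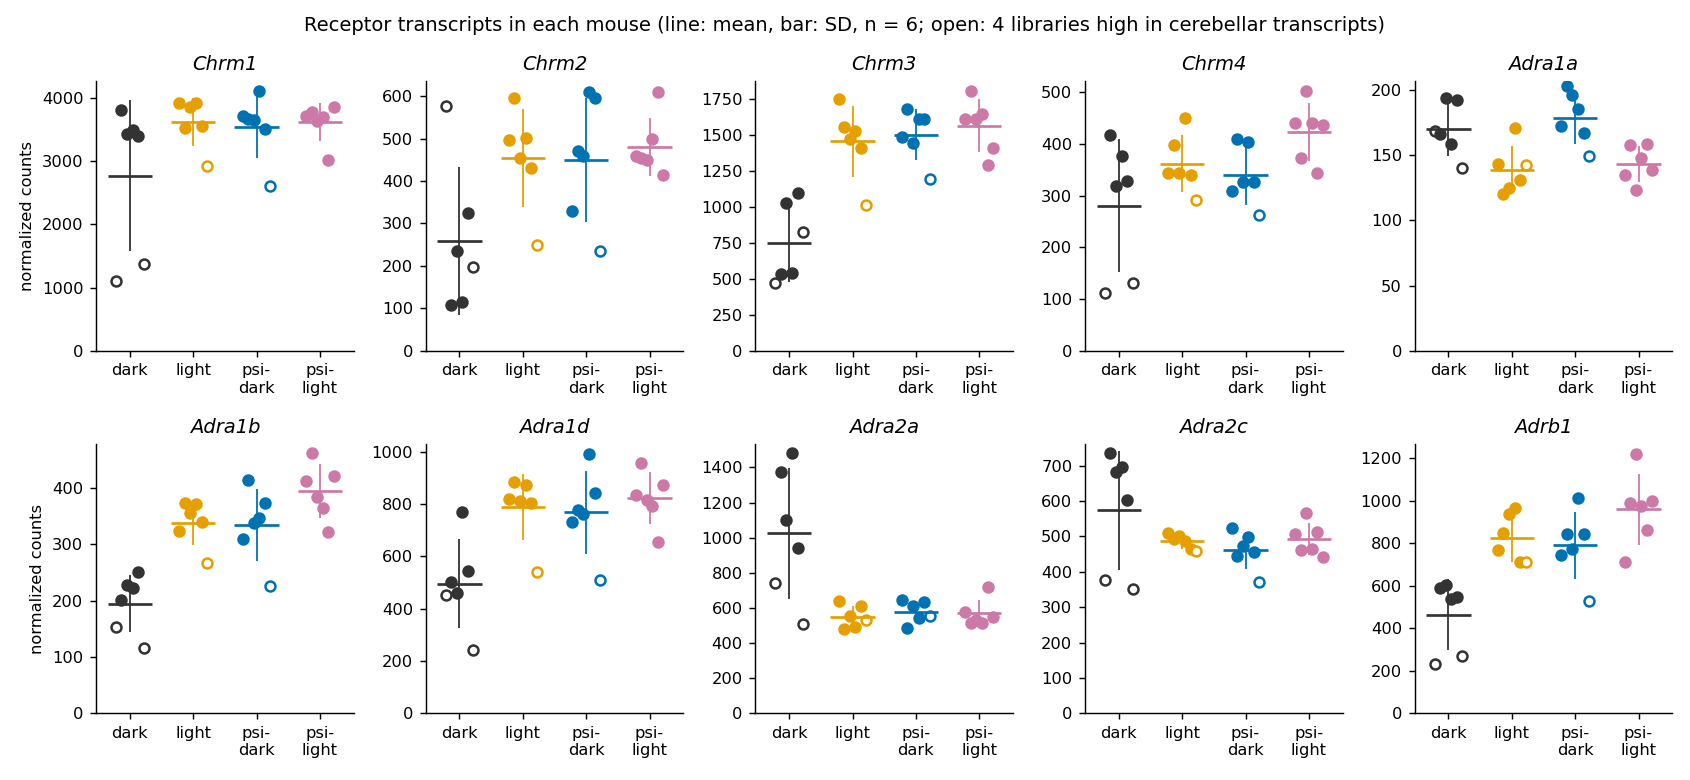
Normalized counts of each receptor transcript in each mouse (points) with the mean (line) and SD (bar) of 6 mice per group, where psi is psilocybin and open points are the 4 libraries high in cerebellar transcripts. Dark mice sit low for Chrm3, Adra1b, Adra1d and Adrb1 and spread upwards for Adra2a, and dark mice 1 and 6 fall below the others for Chrm1, Chrm4, Adra2c and Adrb1.

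Among the Gq-coupled muscarinic receptors, Chrm3 rose in every group against dark mice. Chrm3 had a lowest, median and highest normalized count of 469, 681 and 1094 in dark mice and of 1016, 1501 and 1754 in light mice. In psilocybin-dark mice they were 1191, 1545 and 1679, and in psilocybin-light mice 1291, 1613 and 1808. All psilocybin-dark and psilocybin-light mice were above the highest dark mouse, and of the light mice only mouse 18, one of those high in cerebellar transcripts, was below it. The log2 fold change of Chrm3 against dark mice was 0.96 (SE 0.17, adjusted p = 0.000251) with light, 1.01 (SE 0.17, adjusted p = 0.000265) with psilocybin in the dark and 1.06 (SE 0.18, adjusted p = 6.17e-05) with both. The fold was thus 1.95, 2.01 and 2.09. Within the dark group Chrm3 fell into a lower set, mice 1, 2 and 4 (469 to 539 normalized counts), and a higher set, mice 3, 5 and 6 (822 to 1094). Mice 1, 2 and 4 also had the highest sums of hippocampal markers (4436 to 7175, against 2695 to 3861 in the other 3 dark mice). With the 4 libraries high in cerebellar transcripts left out, the Chrm3 values were 0.95 (adjusted p = 9.55e-05), 0.97 (adjusted p = 0.000105) and 0.98 (adjusted p = 3.95e-05).

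Chrm1, the main muscarinic receptor of cortical pyramidal cells, did not pass the test in any comparison with all libraries. The lowest, median and highest normalized counts of Chrm1 were 1108, 3416 and 3814 in dark mice and 2926, 3708 and 3927 in light mice. Psilocybin-dark mice had 2611, 3663 and 4119.8, and psilocybin-light mice 3024, 3706 and 3856. The ranges overlapped among all groups, and dark mice 1 (1108) and 6 (1381) were the lowest of all 24, below 2611 in psilocybin-dark mouse 12. Against dark mice Chrm1 had a log2 fold change of 0.38 (SE 0.21, adjusted p = 0.18) with light, 0.36 (SE 0.21, adjusted p = 0.24) with psilocybin in the dark and 0.39 (SE 0.21, adjusted p = 0.162) with both. In the 20 libraries with few cerebellar transcripts, Chrm1 gave 0.09 (adjusted p = 0.268), 0.08 (adjusted p = 0.363) and 0.04 (adjusted p = 0.587). The 4 dark mice that remained lay between 3402 and 3814. With dark mice 1 and 6 as the whole dark group the log2 fold changes of Chrm1 were 1.54, 1.51 and 1.55. These mice were the lowest of all 24, so the direction was fixed by the choice and is no test of the groups.

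Of the Gi-coupled muscarinic receptors, Chrm2, the presynaptic autoreceptor of cholinergic terminals, had the widest spread of the 10 in dark mice (SD 67.5% of the mean). In dark mice Chrm2 had a lowest, median and highest normalized count of 108, 216 and 576, and in light mice of 248, 476 and 596. The corresponding counts were 234, 464 and 609 in psilocybin-dark mice and 413, 456 and 609 in psilocybin-light mice. Dark mouse 1 stood within the range of the other groups, and the other 5 dark mice, at 108 to 324, were below every psilocybin-light mouse. On the log2 scale Chrm2 differed from dark mice by 0.81 (SE 0.31, adjusted p = 0.0513) with light, 0.79 (SE 0.31, adjusted p = 0.0669) with psilocybin in the dark and 0.89 (SE 0.31, adjusted p = 0.028) with both. DESeq2's Wald test called Chrm2 in each of these comparisons (adjusted p = 0.0317, 0.0421 and 0.0133). The Chrm2 values in the 20 libraries with few cerebellar transcripts were 1.35 (adjusted p = 0.000136), 1.34 (adjusted p = 0.000193) and 1.31 (adjusted p = 0.000111). Leaving out dark mouse 1 alone was enough for Chrm2 to pass between light and dark mice (1.22, adjusted p = 0.0017) and between psilocybin-dark and dark mice (1.20, adjusted p = 0.00288), and the call with light also appeared without dark mouse 5, light mouse 18 or psilocybin-dark mouse 12, the second call also without the last of these. The call with both stimuli was lost without dark mouse 2, 4 or 6 or psilocybin-light mouse 23 (highest adjusted p = 0.0632).

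Chrm4, which in forebrain is best known from neurons that also carry dopamine receptors, passed only in the comparison of psilocybin-light with dark mice. Chrm4 had a lowest, median and highest normalized count of 112, 324 and 417 in dark mice and of 292, 344 and 451 in light mice. In psilocybin-dark mice they were 263, 326 and 410.2, and in psilocybin-light mice 345, 439.5 and 503. All groups overlapped, and the lowest of the 24 were dark mice 1 (112) and 6 (131). The log2 fold change of Chrm4 against dark mice was 0.37 (SE 0.23, adjusted p = 0.237) with light, 0.28 (SE 0.23, adjusted p = 0.418) with psilocybin in the dark and 0.59 (SE 0.23, adjusted p = 0.0451) with both. With the 4 libraries high in cerebellar transcripts left out, the Chrm4 values were 0.06 (adjusted p = 0.725), -0.03 (adjusted p = 0.875) and 0.24 (adjusted p = 0.0821). The call with both stimuli was also lost in 12 of 24 fits with a single mouse omitted. Against dark mice 1 and 6 alone Chrm4 was higher by 1.58 with light, 1.49 with psilocybin and 1.81 with both. Because these mice were the lowest of all 24, the direction was fixed by the choice and is no test of the groups.

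The alpha1 adrenergic receptors, which couple to Gq, did not all change the same way. Adra1b rose in every group against dark mice. The lowest, median and highest normalized counts of Adra1b were 115, 212 and 250.0 in dark mice and 266, 348 and 373 in light mice. Psilocybin-dark mice had 226, 342 and 414, and psilocybin-light mice 322, 398 and 461. Every light and psilocybin-light mouse was above the highest dark mouse, as was every psilocybin-dark mouse but mouse 12, which is high in cerebellar transcripts. Against dark mice Adra1b had a log2 fold change of 0.80 (SE 0.15, adjusted p = 0.000461) with light, 0.78 (SE 0.15, adjusted p = 0.000837) with psilocybin in the dark and 1.02 (SE 0.15, adjusted p = 2.69e-05) with both. In the 20 libraries with few cerebellar transcripts, Adra1b gave 0.65 (adjusted p = 1.95e-05), 0.66 (adjusted p = 2.29e-05) and 0.81 (adjusted p = 7.01e-07).

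Adra1d rose as well, with more overlap. In dark mice Adra1d had a lowest, median and highest normalized count of 244, 482 and 769, and in light mice of 539.7, 815 and 883. The corresponding counts were 508, 771 and 993 in psilocybin-dark mice and 655, 826 and 958 in psilocybin-light mice. Dark mouse 4 (769) reached into the range of the other groups and dark mouse 6 (244) was the lowest of all. On the log2 scale Adra1d differed from dark mice by 0.67 (SE 0.19, adjusted p = 0.00815) with light, 0.63 (SE 0.19, adjusted p = 0.0153) with psilocybin in the dark and 0.73 (SE 0.19, adjusted p = 0.00348) with both. The Adra1d values in the 20 libraries with few cerebellar transcripts were 0.56 (adjusted p = 0.000975), 0.52 (adjusted p = 0.00196) and 0.54 (adjusted p = 0.000833).

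Adra1a, the least abundant per length, was lower in both groups placed in light than in dark mice and passed no test between psilocybin-dark and dark mice. Adra1a had a lowest, median and highest normalized count of 139.8, 167 and 194 in dark mice and of 120.4, 137 and 171 in light mice. In psilocybin-dark mice they were 149, 179 and 203, and in psilocybin-light mice 123, 143 and 158. The ranges overlapped among all groups, and the medians of the 2 groups kept in the dark were the higher ones. The log2 fold change of Adra1a against dark mice was -0.29 (SE 0.10, adjusted p = 0.0251) with light, 0.07 (SE 0.10, adjusted p = 0.622) with psilocybin in the dark and -0.24 (SE 0.10, adjusted p = 0.0499) with both. With the 4 libraries high in cerebellar transcripts left out, the Adra1a values were -0.36 (adjusted p = 0.00647), 0.05 (adjusted p = 0.72) and -0.30 (adjusted p = 0.0142). Psilocybin-light mice had a log2 fold change of -0.32 (SE 0.10, adjusted p = 0.0513) against psilocybin-dark mice, and psilocybin-dark against light mice gave 0.36 (SE 0.10, adjusted p = 0.0732), neither of which passed. Both passed once the 4 libraries were left out (17.2% and 6.03% of all genes), at -0.35 (adjusted p = 0.0116) and 0.42 (adjusted p = 0.0205). These calls lay close to the threshold: that between light and dark mice was lost without dark mouse 3 or 5 or light mouse 14 or 15 (highest adjusted p = 0.0653), and that between psilocybin-light and dark mice in 16 of 24 fits with a single mouse omitted. The difference between psilocybin-light and psilocybin-dark mice passed without dark mouse 3 or 6, psilocybin-dark mouse 12 or light mouse 16 (lowest adjusted p = 0.0253), and that between psilocybin-dark and light mice without any of the last 3 (lowest adjusted p = 0.0413).

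Of the alpha2 receptors, which couple to Gi and restrain noradrenaline release as well as acting on cortical neurons, Adra2a fell in every group against dark mice. The lowest, median and highest normalized counts of Adra2a were 509, 1019.8 and 1484 in dark mice and 479, 543 and 637 in light mice. Psilocybin-dark mice had 485, 583 and 645, and psilocybin-light mice 515, 541 and 722. Dark mouse 6 (509) lay within the range of the other groups and the other 5 dark mice, at 740 to 1484, were above all 18 others. Against dark mice Adra2a had a log2 fold change of -0.90 (SE 0.17, adjusted p = 0.000492) with light, -0.82 (SE 0.17, adjusted p = 0.00152) with psilocybin in the dark and -0.85 (SE 0.17, adjusted p = 0.000579) with both. The fold was 0.537, 0.565 and 0.556. In the 20 libraries with few cerebellar transcripts, Adra2a gave -1.14 (adjusted p = 7.54e-07), -1.07 (adjusted p = 2.68e-06) and -1.10 (adjusted p = 4.37e-07). The 4 remaining dark mice then stood at 941 to 1484. With dark mice 1 and 6 as the whole dark group instead, no call remained for Adra2a (-0.18, adjusted p = 0.328 with light). These mice (740 and 509) were the lowest of the dark group for Adra2a. The smaller difference thus followed from the choice and is no test of the groups. Dark mice 4 and 2, the highest for Adra2a, also had the highest sums of hypothalamic and amygdalar markers (14155 and 11369).

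Adra2c did not pass with all libraries. In dark mice Adra2c had a lowest, median and highest normalized count of 353, 643 and 735, and in light mice of 459, 491 and 511. The corresponding counts were 372, 464 and 524 in psilocybin-dark mice and 442, 485 and 567 in psilocybin-light mice. Dark mice fell apart into 4 at 602 to 735, above every other mouse of the series, and mice 1 (378) and 6 (353), at the lower end. On the log2 scale Adra2c differed from dark mice by -0.24 (SE 0.14, adjusted p = 0.196) with light, -0.31 (SE 0.14, adjusted p = 0.104) with psilocybin in the dark and -0.22 (SE 0.14, adjusted p = 0.218) with both. Its direction turned on these mice, and it passed with light or psilocybin when either was left out (lowest adjusted p = 0.0265 and 0.00965). The Adra2c values in the 20 libraries with few cerebellar transcripts were -0.47 (adjusted p = 1.76e-05), -0.51 (adjusted p = 1.06e-05) and -0.45 (adjusted p = 1.03e-05). With mice 1 and 6 as the whole dark group Adra2c was instead higher with light, by 0.41 on the log2 scale. This followed from taking the mice at the lower end and is no test of the groups.

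Adrb1, the Gs-coupled beta1 receptor, rose in every group against dark mice. Adrb1 had a lowest, median and highest normalized count of 232, 543 and 603 in dark mice and of 711, 808 and 967 in light mice. In psilocybin-dark mice they were 531, 808 and 1012, and in psilocybin-light mice 714, 981 and 1219. Every light and psilocybin-light mouse was above the highest dark mouse, and psilocybin-dark mouse 12 alone among the psilocybin-dark mice was below it. The log2 fold change of Adrb1 against dark mice was 0.83 (SE 0.20, adjusted p = 0.00284) with light, 0.77 (SE 0.20, adjusted p = 0.00671) with psilocybin in the dark and 1.05 (SE 0.20, adjusted p = 0.000267) with both. With the 4 libraries high in cerebellar transcripts left out, the Adrb1 values were 0.57 (adjusted p = 0.000695), 0.56 (adjusted p = 0.000974) and 0.76 (adjusted p = 2.05e-05). The highest mean, 959 ± 167 normalized counts (SD, n = 6), was in psilocybin-light mice, against 824 ± 112 in light mice, a difference that did not pass the test (adjusted p = 0.836).

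**Figure D4:**
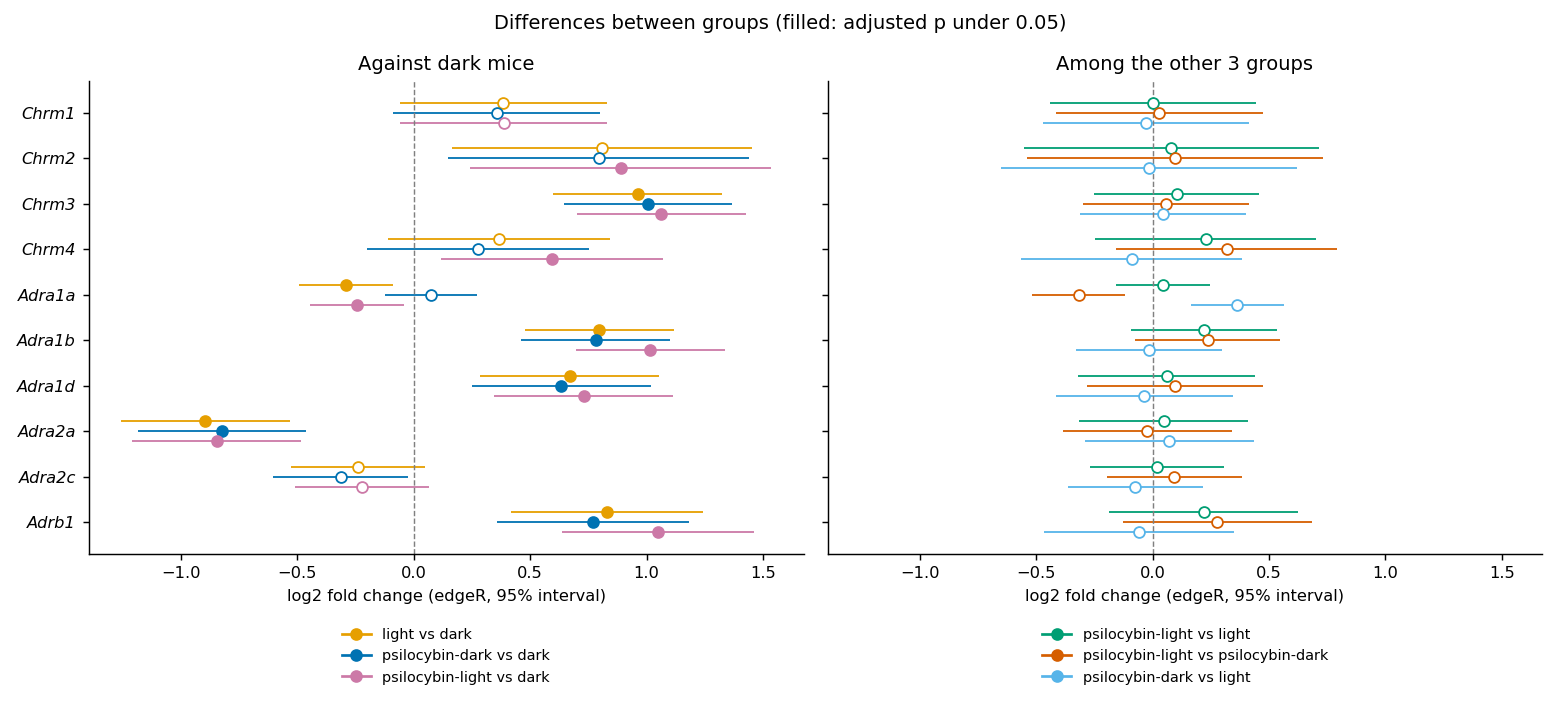
Log2 fold change and its 95% interval from edgeR for each gene in the 3 comparisons with dark mice (left) and the 3 among the other groups (right), with filled points where the adjusted p was under 0.05. On the left 6, 5 and 8 points are filled, and on the right none.

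Among the 3 groups that received light, psilocybin or both, few differences were seen. Between psilocybin-light and light mice none of the 10 passed, where 0.608% of all genes did, none had an unadjusted p under 0.05, and DESeq2's Wald test called none (1.32% of all genes). The largest log2 fold changes were 0.23 for Chrm4 (95% interval -0.25 to 0.70), 0.22 for Adra1b (-0.09 to 0.53) and 0.22 for Adrb1 (-0.19 to 0.62). Between psilocybin-light and psilocybin-dark mice none passed in edgeR, where 6.38% of all genes did. Adra1a had an unadjusted p under 0.05 and was the 1 gene that DESeq2 called (8.28% of all genes). Between psilocybin-dark and light mice, the 2 stimuli given alone, none passed, where 0.456% of all genes did, and Adra1a was again the 1 gene with an unadjusted p under 0.05 and the 1 that DESeq2 called (2.80% of all genes). For Chrm3 the difference between psilocybin-dark and light mice was 0.05 with a 95% interval of -0.31 to 0.40, and for Adra2a it was 0.07 (-0.29 to 0.43). These intervals leave room for differences of about the size of the interval bounds, so the groups are not shown to be alike.

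The interaction compares the joint effect with the sum of the 2 single effects on the log2 scale. It passed for 2 of 10 genes, where 8.75% of all genes passed. For Chrm3 the joint difference from dark mice was smaller than the sum, with a log2 interaction of -0.90 (SE 0.24, adjusted p = 0.0245). For Adra2a, which was lower in all 3 groups, the interaction was 0.87 (SE 0.25, adjusted p = 0.031), so the fall with both was less than the sum of the single ones. The Adra2a call was lost without dark mouse 2 or 4, psilocybin-dark mouse 8 or 10, light mouse 14 or 16 or psilocybin-light mouse 23 (highest adjusted p = 0.0596). Adra1b (-0.56, adjusted p = 0.104) and Adra1d (-0.57, adjusted p = 0.171) had interactions on the same side as Chrm3 and did not pass, although Adra1b did without psilocybin-dark mouse 12 (adjusted p = 0.0366). Without the 4 libraries high in cerebellar transcripts 6 of 10 passed, where 27.0% of all genes did: Chrm2 (-1.38), Chrm3 (-0.94), Adra1b (-0.49) and Adra1d (-0.55) below 0, and Adra2a (1.12) and Adra2c (0.52) above it. The dark mice, with their high sums of hippocampal markers, enter the interaction as they do the single comparisons. With the mean level of these markers as a covariate both calls were lost, at -0.44 for Chrm3 (adjusted p = 0.641) and 0.57 for Adra2a (adjusted p = 0.574).

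The choice of libraries and of the fit moved the number of members called. Without the 4 libraries high in cerebellar transcripts 8, 7 and 8 members passed against dark mice with light, psilocybin and both, where 43.1%, 38.3% and 48.2% of 14135 genes did. The calls of Chrm3, Adra1b, Adra1d, Adra2a and Adrb1 against dark mice were kept in all 24 fits with a single mouse omitted. When only the compared groups were fitted, Adra1d (0.63, adjusted p = 0.083) and Adrb1 (0.77, adjusted p = 0.0527) lost their calls with psilocybin in the dark. In that setting Adra1a lost its call with light (adjusted p = 0.0629) and with both (adjusted p = 0.0707), as did Chrm2 (adjusted p = 0.0729) and Chrm4 (adjusted p = 0.134) with both. With dark mice 1 and 6 as the whole dark group the log2 fold changes with light grew to 1.71 for Adrb1, 1.34 for Adra1b and 1.18 for Adra1d. For these genes both mice were the lowest of all 24, so the growth followed from the choice. With the mean log2 level of the hippocampal markers as a covariate none of the 10 passed in any comparison. The share of all genes that passed in that fit is not given, so this count cannot be read against it. In that fit Chrm3 had a log2 fold change of 0.41 with light (adjusted p = 0.437), Adra1b of 0.72 (adjusted p = 0.171) and Adra2a of -0.54 (adjusted p = 0.348). The summed hippocampal markers separate the dark group from the others without overlap. The covariate is their mean log2 level instead, whose ranges by group are not given, so covariate and group may not be separable in this fit.

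**Figure D5:**
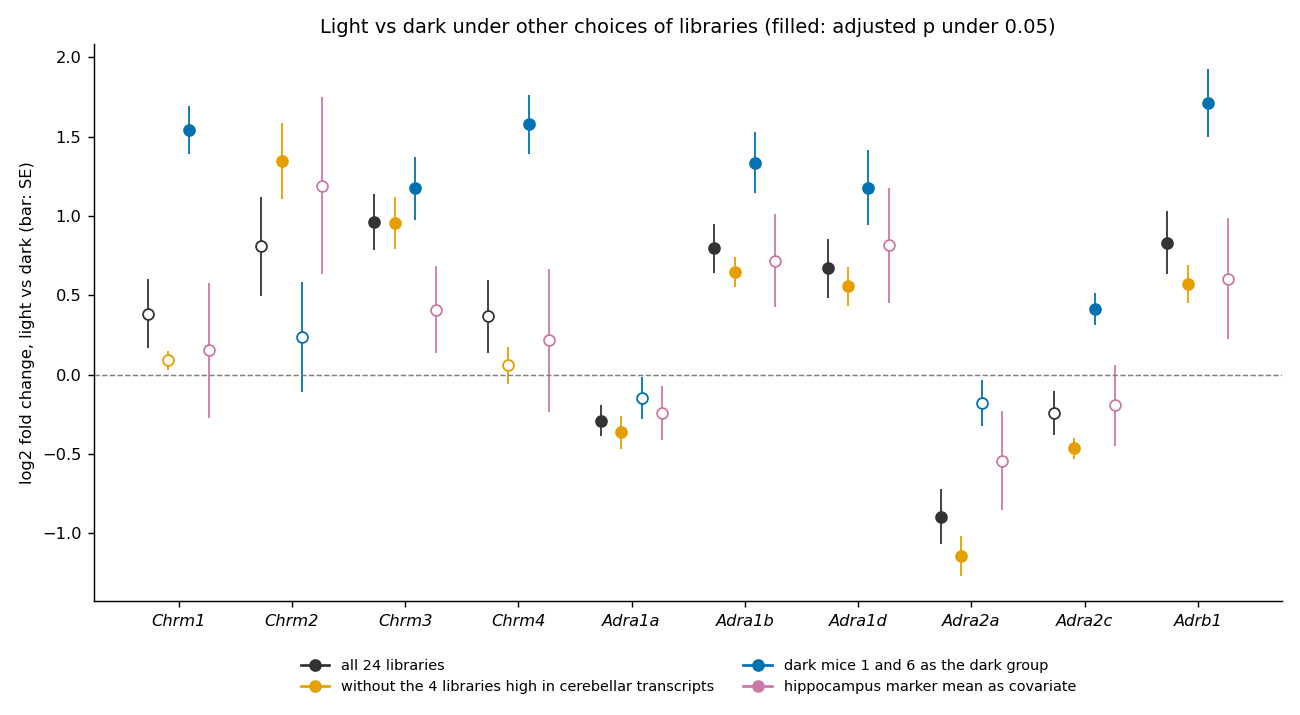
Log2 fold change (points) and SE (bars) of each gene between light and dark mice with all 24 libraries, without the 4 libraries high in cerebellar transcripts, with dark mice 1 and 6 as the only dark mice, and with the hippocampal marker mean as a covariate, with filled points where the adjusted p was under 0.05. Adra2c changes sign between the second and the third choice, Adra2a nears 0 with dark mice 1 and 6, and no point is filled with the covariate.

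The members' levels were compared with those of 11119 tested genes whose mean count over the 24 libraries was 100 or more, as Pearson's r of log2 CPM, which is a description over libraries that share group, depth and region markers. Chrm3 was most like Olfm2 (0.977), Sgtb (0.977) and Slc30a4 (0.976). Adra2a was most like Sertm1 (0.952), Rhbdl3 (0.941) and Kcng1 (0.938), and Chrm2 most like Rcan2 (0.928), Fbxo32 (0.921) and Nefm (0.918). For these 3 members the values over the 20 libraries with few cerebellar transcripts were 0.973, 0.955 and 0.955 for the first gene of each. Chrm1 was most like Synpo (0.982), Cyp46a1 (0.981) and Agap2 (0.981), but over the 20 libraries these values dropped to 0.744, 0.603 and 0.621. Chrm4 likewise went from 0.955 to 0.620 with Fam131a, followed by Cacnb1 (0.948) and Chst1 (0.946) over 24 libraries. Adra1b was most like Blnk (0.969), Ptk2 (0.964) and Sh2d5 (0.962), Adra1d like Stxbp6 (0.953), Mast3 (0.940) and Ociad2 (0.938), and Adrb1 like Rbm24 (0.965), Lingo1 (0.955) and Dnajb5 (0.953). Adra2c was most like Fgf13 (0.921), Cnih2 (0.921) and Nsg2 (0.919). Adra1a had the lowest values of the 10, with Bltp2 (0.834), Elapor2 (0.830) and Clasp1 (0.819). Within the set Chrm1 and Chrm4 had the highest r (0.939), followed by Adra1b with Adra1d (0.914) and with Adrb1 (0.910), and Chrm3 and Adra2a the lowest (-0.70).

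Chrm5, the remaining muscarinic receptor, had a lowest, median and highest normalized count of 7.31, 82.6 and 157.6 in dark mice, 0, 5.34 and 11.1 in light mice, 3.00, 7.56 and 13.8 in psilocybin-dark mice and 1.11, 8.01 and 21.4 in psilocybin-light mice. The lowest dark mouse lay within the range of the other groups. Its log2 fold change was -4.06 (SE 0.68, adjusted p = 0.00011) with light and -3.39 (SE 0.64, adjusted p = 0.000586) with psilocybin in the dark, and -3.08 (SE 0.62, adjusted p = 0.000494) with both. Only dark mice reached the count needed for testing, as the other 18 mice held at most 21.4 normalized counts of Chrm5. The filter thus chose this gene by the group where it was high, so its values are no independent test. Adrb3 ranged from 4.57 to 51.5 normalized counts over the 24 mice and did not pass against dark mice. Adra2b, at most 15 counts in any library, was not tested.

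The enzymes and transporters that make and take up both transmitters belong mainly to the projecting neurons, whose cell bodies lie outside the cortex, although some cortical interneurons express Chat. Several were high in dark mouse 1. Its normalized counts were 1164 for the noradrenaline transporter Slc6a2, 687 for the noradrenaline-making enzyme Dbh and 324 for tyrosine hydroxylase, Th, against highest values of 5.57, 10.2 and 30.8 in the other 23 libraries. It also held 715 counts of the choline transporter Slc5a7, 224 of the vesicular acetylcholine transporter Slc18a3 and 191 of Chat, which makes acetylcholine, against at most 25.05, 12.8 and 12.8 elsewhere. Of the 9 genes of noradrenaline handling 4 were lower in light than in dark mice, and 4 were lower with psilocybin in the dark. Those lower with light included Slc6a2 (-9.40, adjusted p = 0.00171), Dbh (-6.53, adjusted p = 0.00268) and Th (-1.75, adjusted p = 0.0338). Without dark mouse 1, Slc6a2 and Dbh no longer had enough counts to test and Th gave 0.05 (adjusted p = 0.912). Of the 6 genes of acetylcholine handling 2 were lower with light, Slc5a7 (-3.02, adjusted p = 0.00937) and Slc18a3 (-2.52, adjusted p = 0.0447), and neither was testable without dark mouse 1. With psilocybin in the dark 2 were lower, Slc5a7 (-2.93, adjusted p = 0.0147) and the acetylcholine-degrading Ache (-0.50, adjusted p = 0.031), which stood at 1986 in dark mouse 1 and at most at 953.5 elsewhere. Without dark mouse 1 Ache still passed with psilocybin, at -0.20 (adjusted p = 0.038). Without the 4 libraries high in cerebellar transcripts it gave -0.22 (adjusted p = 0.0239).

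The nicotinic receptors, the ion channels for acetylcholine, had 7 of 11 listed subunits tested, of which 2 were lower both with light and with psilocybin in the dark and none higher with all libraries. Chrna7 fell by 0.93 (SE 0.19, adjusted p = 0.000729) with light and by 0.79 (adjusted p = 0.00393) with psilocybin on the log2 scale. Chrnb2 fell by 0.46 (SE 0.10, adjusted p = 0.000903) and by 0.38 (adjusted p = 0.00568). Without the 4 libraries high in cerebellar transcripts 43.1% and 38.3% of 14135 genes passed with light and with psilocybin in the dark. Of the subunits 5 of 7 passed in each comparison, 2 of them higher. Those were Chrnb3, at 2.05 (adjusted p = 0.000327) with light and 2.00 (adjusted p = 0.000556) with psilocybin, and Chrna6 (adjusted p = 1.92e-05 and 0.000372). The 4 remaining dark mice held 3 to 22 counts of Chrnb3 and 0 to 5 of Chrna6. Both genes thus reached the count needed for testing only in the groups where they were high, so these values are no independent test. Chrna5 was the other subunit that passed, lower in both (log2 fold change -1.25 in each, adjusted p = 0.000386 and 0.000528).

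Downstream of the receptors, the G protein alpha subunits gave 3 lower and none higher of 9 with light, and 2 lower with psilocybin in the dark. These were Gnal (-0.32 and -0.20), Gnas (-0.17 and -0.22), both of which stimulate adenylyl cyclase, and with light also Gnai1 (-0.21), which inhibits it. Of 12 adenylyl cyclases and phospholipases 2 were higher and 3 lower with light, and 3 higher and 2 lower with psilocybin. The higher ones were the phospholipase Plcb1 (0.44 and 0.58) and the cyclase Adcy2 (0.43 and 0.46), with psilocybin also Adcy9 (0.34), and the lower ones the cyclases Adcy5 (-0.51 and -0.40) and Adcy8 (-0.35 and -0.24), with light also Adcy3 (-0.27). Without the 4 libraries high in cerebellar transcripts 4 were higher and 4 lower with light and 5 and 4 with psilocybin, and the phospholipase Plcb4 went from -0.06 to 1.55 (adjusted p = 2.61e-06) and from 0.02 to 1.59 (adjusted p = 3.56e-06). Of 12 genes of receptor desensitisation 4 were higher and 2 lower with light and 5 higher with psilocybin. Rgs4, which ends Gq and Gi signals, stood at 1793 to 5382 normalized counts in dark mice and at 5557 to 11473 in the other 18, with no overlap, and its log2 fold change was 1.30 (SE 0.23, adjusted p = 0.000196) with light and 1.36 (adjusted p = 0.0002) with psilocybin. The receptor kinase Grk2 rose by 0.36 (adjusted p = 2.89e-05) and 0.32 (adjusted p = 0.000201), and Rgs7 by 0.33 and 0.34. With light the kinases Grk3 (-0.37) and Grk5 (-0.35) were lower. Without the 4 libraries 3 of this list were lower with psilocybin, Grk3 (-0.47), Rgs14 (-0.51) and the arrestin Arrb2 (-0.25). With light 3 were lower in that fit, Grk3 (-0.54), Rgs14 (-0.59) and Grk5 (-0.26), and Arrb2 did not pass (-0.08, adjusted p = 0.529). The counts with all libraries are to be read against the 31.9% and 24.7% of all genes that passed in the same comparisons. Those without the 4 libraries are to be read against 43.1% and 38.3% of 14135 genes.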

How the data were processed

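The authors trimmed reads with cutadapt, mapped them with STAR and used htseq-count for gene counts; the methods name GRCm39 and the submitters' processing notes mm10. The strand setting of the counting is not given in the sources used here. The deposited values are raw counts. Groups were taken from the supplementary headings, whose raw counts equalled the deposited ones for 1457 of 1457 genes compared.

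The 14464 genes that reached a count of 30 in any library were scaled by TMM and fitted with edgeR 4.0.16 (R 4.3.3, quasi-likelihood, 1 term per group, 24 mice). All tests were two-sided; p-values were adjusted over all genes (Benjamini-Hochberg) with a threshold of 0.05. Each mouse was 1 replicate, and no pair of libraries within a group agreed within sampling noise (lowest chi-square per degree of freedom 3.02). Normalized counts are CPM scaled to the mean effective library size, 16058300. Positions and exon lengths are from GENCODE vM39 on GRCm39. In simulated counts for light and dark mice (14194 genes), edgeR found 82 of 100 genes changed by a log2 of 0.5 and 91 of 100 changed by 1, with 6 wrong calls. DESeq2 found 84 and 93, with 17 wrong calls. Simulated libraries shared 1 mean profile without differences in region markers, so these rates may not hold for the real libraries. Alternatives were DESeq2 1.42.0, other filters, scalings and covariates, and libraries left out. The leaving out of the 4 libraries high in cerebellar transcripts and the cerebellar covariate were chosen after seeing the data. The members and gene lists were chosen with earlier results of these data known. Named genes were the 10 members, the other receptors, up to 3 genes per list and direction with the largest change, and the 3 genes most like each member. Plcb4, Rgs14, Arrb2 and the nicotinic subunits other than Chrna7 and Chrnb2 were named after their values were seen. Some items of the lists are not reported here.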

Additional observations from a re-analysis of the deposited data

Results flagged for a closer look

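In 3 of 40 groups of 6 mice (10 genes in 4 groups), 1 mouse stood apart from the others by Dixon's criterion, where chance gives about 1 in 20 groups. Chrm1 stood at 3024 normalized counts in psilocybin-light mouse 23, the lowest of its group. This mouse also had the lowest cortical excitatory marker sum of its group and a thalamic marker sum of 3305, against 942 to 1266 in the other 5. Adra1d stood at 539.7 in light mouse 18, the lowest of its group and 1 of the 4 libraries high in cerebellar transcripts. Adra2a stood at 722.1 in mouse 23 again, the highest of its group. The part of these marker sums was not tested.

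The effect of light differed with the drug for 2 genes, by the interaction in edgeR. For Chrm3 the log2 effect of light was 0.96 without and 0.06 with psilocybin, an interaction of -0.90 (adjusted p = 0.0245). For Adra2a it was -0.90 without and -0.02 with psilocybin, an interaction of 0.87 (adjusted p = 0.031). The dark mice that enter both also had the high hippocampal marker sums. With the hippocampal marker mean as a covariate neither passed, at -0.44 for Chrm3 (adjusted p = 0.641) and 0.57 for Adra2a (adjusted p = 0.574). Group and covariate may not be separable in that fit.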

How the results depend on the processing

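Leaving out 1 mouse at a time gave 5 to 8 members called with light, 5 to 7 with psilocybin in the dark and 6 to 8 with both against dark mice, 0 to 0 between psilocybin-light and light, 0 to 1 in the other comparisons among stimulated groups and 1 to 3 for the interaction, and 20 to 29 and 17 to 30 called genes in the other lists with light and with psilocybin. With the hippocampal covariate 0 members were called in every comparison, and 1 and 0 list genes. Fitting only the compared groups left 3 (psilocybin-dark against dark), 5 (psilocybin-light against dark) and 1 (psilocybin-light against psilocybin-dark), and 14 and 11 list genes. Between psilocybin-light and psilocybin-dark mice, and between psilocybin-dark and light mice, 1 member (Adra1a) was called by DESeq2, without dark mice 1 and 6, without dark mice 2 to 5, without the 4 libraries high in cerebellar transcripts and with the cerebellar covariate. For the interaction these settings other than DESeq2 gave 4, 6, 6 and 4, and without dark mice 2 to 5 there were 37 list genes with psilocybin. Without dark mice 2 to 5 Adra2c turned to 0.41, 0.34 and 0.44 with light, psilocybin and both. The dark mice that remained were at the lower end for this gene. For settings without a share of all genes given, the counts of members cannot be read against one.

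With the labels' light exposure the libraries change places. Members called were 0 for psilocybin-dark and 0 for psilocybin-light against dark, 5 for psilocybin-light against light and 8 for psilocybin-dark against light, with 0 list genes for psilocybin-dark against dark. The same libraries are compared as above under other names, so 0.608%, 0.456%, 24.7% and 38.4% of all genes passed, in this order. Light against dark then gave Chrm3 -0.96, Adra1a 0.29, Adra1b -0.80, Adra1d -0.67, Adra2a 0.90 and Adrb1 -0.83. Psilocybin-light against dark gave Chrm2 -0.0149, Chrm4 -0.0908, Adra1a 0.36, Adra1b -0.0161, Adra1d -0.0355, Adra2a 0.0716 and Adrb1 -0.0588. Psilocybin-dark against light gave Chrm2 0.89, Chrm3 1.06, Chrm4 0.59, Adra1a -0.24, Adra1b 1.02, Adra1d 0.73, Adra2a -0.85 and Adrb1 1.05. Adra2a was 0.0482 for psilocybin-dark against dark and -0.82 for psilocybin-light against light, and the interactions of Chrm3 and Adra2a were 0.90 and -0.87. The cause of the changes in the other settings was not tested. No paired analysis was made. The methods state that littermates were assigned to the groups at random, but the litter of each mouse is not given in the sample labels used here. Any litter effect was therefore not modelled.

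The strand setting of the counting is not given: 9330158H04Rik, antisense to Chrm2, held 193 counts against 9843, and Gm14285, antisense to Adra1d, 142 against 17154 over all libraries.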
